A study of Bos taurus with 22 samples.

Results

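The genes of oxidative phosphorylation were followed in RNA of the jejunal mucosa of 22 Holstein steers. They were chosen by name. The rule took rows of the count table whose symbol starts with NDUFA, NDUFB, NDUFC, NDUFS, NDUFV, UQCR, UQCC, ATP5 or COX4 to COX8, the genes SDHA, SDHB, SDHC, SDHD and CYC1, and protein-coding rows of the mitochondrial chromosome. It gave 93 rows of 27570, with 92 distinct symbols because 2 rows carry the name NDUFA12. All 93 are nuclear. Mitochondrially encoded genes were not analysed here, so the 2 genomes could not be compared.

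Oxidative phosphorylation couples the transport of electrons from NADH and succinate to oxygen with the synthesis of ATP in the inner mitochondrial membrane. Complex I (NADH dehydrogenase) and complex II (succinate dehydrogenase, also an enzyme of the citric acid cycle) pass electrons to complex III (cytochrome bc1). Cytochrome c carries them on to complex IV (cytochrome c oxidase), and complex V (ATP synthase) uses the proton gradient that results. Most subunits are encoded in the nucleus, and assembly factors help to build the complexes without being part of the finished enzyme. In the small intestine the absorptive enterocytes spend ATP on sodium-coupled uptake of nutrients.

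The steers were 10 to 12 months old. All of them were given raw corn starch into the abomasum (3.94 g per kg of body weight daily) for 7 d, so no treatment lacked starch. With the starch they received water or sodium caseinate (casein, 1.3 g per kg daily). They were injected under the skin with a vehicle that held bovine serum albumin (BSA) or with glucagon-like peptide 2 (GLP-2, 100 µg per kg daily), a gut hormone that promotes growth of the intestinal mucosa. The treatments were control (water and BSA, n = 5), GLP-2 (water and GLP-2, n = 5), casein (casein and BSA, n = 6) and casein + GLP-2 (n = 6), so that 11 steers received BSA and 11 received GLP-2. Steers are named by treatment and by replicate number, which is the number of their body weight block. Each steer gave 1 sample of scraped mucosa. Libraries were made from polyadenylated RNA and held between 8809666 and 28447810 counted reads (median 12028560.5).

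The scrapings differed in their makeup. The summed level of 24 rows for markers of villus enterocytes ranged from 4423 to 102194 CPM (counts scaled to library size and composition) in BSA steers and from 34283 to 152248 in GLP-2 injected steers, with no marker at 0 in a treatment. With GLP-2 all 24 had a higher fitted level, of which 5 passed. The summed level of 16 B cell follicle markers was between 122 and 2715 CPM with BSA and between 77.2 and 149 with GLP-2, and 13 of the 14 tested fell. The follicle score, the mean log2 CPM of these markers, was 5.98, 6.87 and 6.17 in control replicates 1, 3 and 5 and 6.76 in casein replicate 3, and at most 3.74 in the other 18 steers. Results below are also given without these 4 steers, a choice made after the scores were seen. Smooth muscle markers summed to between 57.4 and 282 CPM in casein + GLP-2, to between 122 and 885 in GLP-2 and to between 74.8 and 1498 in BSA steers. Of 10 proliferation markers 4 fell with GLP-2 (median log2 fold change -0.89). Of 7 plasma cell markers 2 fell (-1.56), while 3 of the 7 had a higher fitted level. These counts are to be read against 5.13% of all genes called higher and 8.37% called lower. The part of these cells in the values of the members was not tested. In bulk tissue, fewer cells of a type and less RNA per cell cannot be told apart.

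The members were 38 subunits of complex I (7 core and 31 accessory), 4 of complex II, 9 of complex III, 14 of complex IV and 17 of complex V, with 8 assembly factors of complex I, 2 of complex III and the ATP synthase inhibitor ATP5IF1. Both rows named NDUFA12 are among the 38. No member was named COX5B, COX6B1, COX6C or COX7C, further subunits of complex IV, so values for that complex cover only part of it. Reads of the 82 subunits made up between 1.02% and 2.72% of all counts of a steer (median 2.03%). Of the summed subunit CPM over the 22 steers, complex V took a mean of 38.8% (SD 1.63), complex I 24.9% (SD 1.40), complex IV 15.9% (SD 1.07), complex III 11.8% (SD 0.608) and complex II 8.58% (SD 1.61). These shares depend on gene lengths as well as on transcript numbers.

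Levels of different genes were compared per length, as FPKM (fragments scaled by gene length and by library size). ATP5MPL, a small subunit of the membrane part of ATP synthase, had the highest median over the 22 steers, 981 FPKM (582 to 3116). It was followed by ATP5MG, another membrane subunit, at 881 FPKM (624 to 1833), and by COX4I1, the general form of complex IV subunit 4, at 771 FPKM (392 to 995). The subunits of the catalytic head came next, ATP5F1B at 664 FPKM (387 to 1062) and ATP5F1A at 649 FPKM (370 to 1024). Each of these 5 overlapped the next over the steers. The annotated lengths of ATP5MPL and ATP5MG are 290 and 474 bases, and FPKM is less certain for genes this short. In CPM both were below ATP5F1A and ATP5F1B in every steer. The median member stood at 381 FPKM among complex V subunits, 305 in complex III, 242 in complex II, 193 in complex IV and 116 in complex I. The complex IV value includes 4 rows below 1 FPKM and lacks the subunits without a row. Assembly factors were lower, with a median of 9.53 FPKM and single values from 3.19 for NDUFAF5 to 80.1 for NDUFAF3.

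For most subunits with several forms, 1 form carried nearly all the RNA. COX4I1 far exceeded COX4I2, a form known from lung, which had 0.164 FPKM (0 to 3.80). COX6A1 had 435 FPKM (122 to 656), and its heart and muscle form COX6A2 had 0 FPKM (0 to 0.223). COX7A2 had 499 FPKM (181 to 821), against 7.98 FPKM (3.49 to 23.7) for the heart and muscle form COX7A1. The related COX7A2L, which takes part in joining complexes into supercomplexes, had 152 FPKM (80.9 to 256). NDUFA4, now counted as a subunit of complex IV, had 237 FPKM (148 to 405), and its relative NDUFA4L2, known to be induced by hypoxia, had 0.458 FPKM (0 to 6.57). COX6B2, a form known from testis, had 0.379 FPKM (0 to 2.14), and without a row for COX6B1 that pair could not be compared.

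COX8 and the ring subunit of ATP synthase did not follow that pattern. COX8A was at 436 FPKM (310 to 619) and COX8B, the heart and muscle form in other mammals, at 193 FPKM (44.4 to 393). The COX8B row (ENSBTAG00000002046, chromosome 11, 82921987 to 82924620, ARS-UCD1.2) overlaps PSMD13 and NBAS, annotated on the other strand, and the strand setting of the counting is not given in the sources used here, so reads of the strands may be mixed. The 3 genes of the ring subunit, which encode the same mature protein, were of similar level, with 229 FPKM (85.2 to 361) for ATP5MC1, 247 FPKM (154 to 322) for ATP5MC2 and 389 FPKM (159 to 594) for ATP5MC3.

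**Figure D1:**
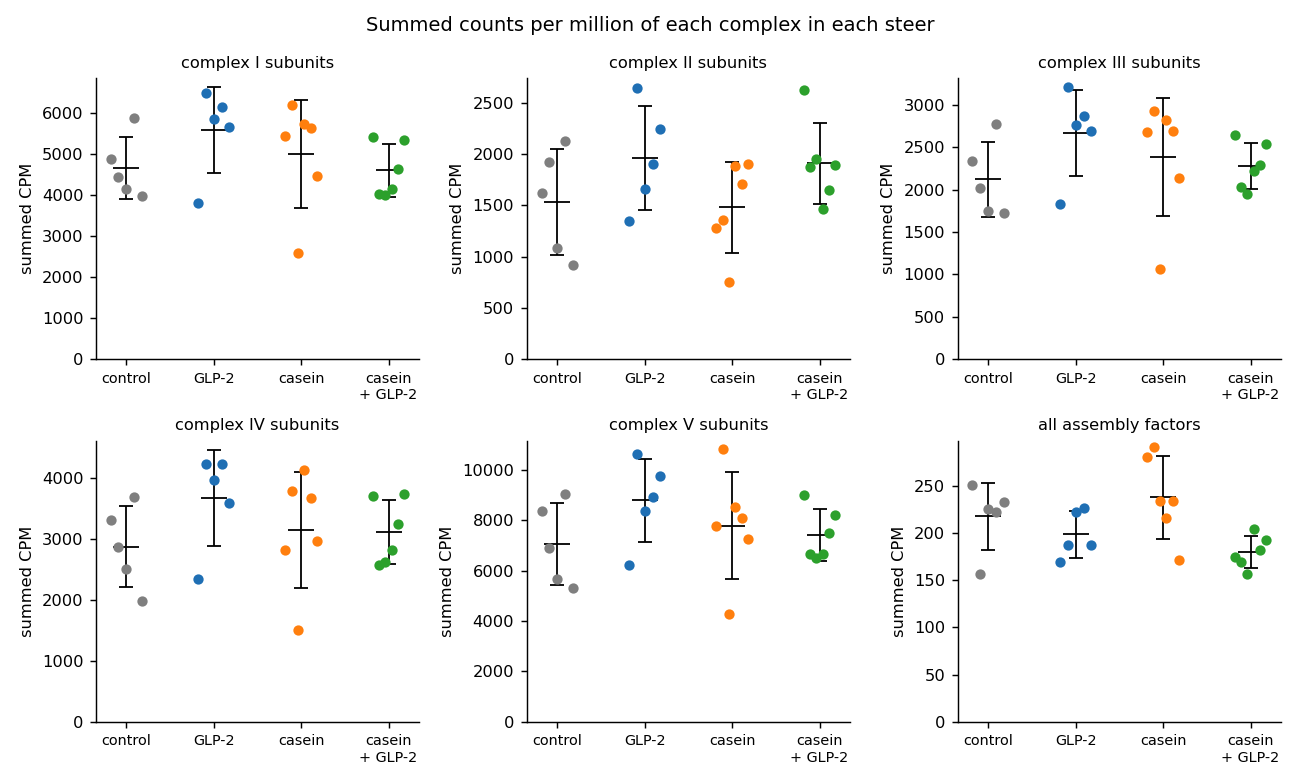
Summed CPM (y axis) of the subunits of each complex that are members and of the 10 assembly factors in each steer, by treatment (x axis). Points are steers, and bars are the mean and 1 SD. The treatments overlapped, and casein replicate 3 was lowest in each of the 5 complexes.

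The summed level of all 82 subunits was 20549, 18152, 15139, 23525 and 13924 CPM in the 5 control steers. In the 5 GLP-2 steers it was 15566, 27225, 22646, 24119 and 23951 CPM. In casein it ran from 10171 over a median of 20891 to 25107 CPM, and in casein + GLP-2 from 17036 over 18342 to 23411 CPM. GLP-2 replicates 1 and 4 lay within the range of the controls, and casein replicate 3, one of the follicle-rich scrapings, was lowest of all 22. Means were 18258 CPM (SD 3922, n = 5) in control, 22701 (SD 4329, n = 5) in GLP-2, 19819 (SD 5236, n = 6) in casein and 19345 (SD 2704, n = 6) in casein + GLP-2.

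In each of the 5 complexes the highest mean was that of GLP-2. With the means given for control, then GLP-2, then casein and last casein + GLP-2, complex I subunits summed to 4667 (SD 761), 5598 (SD 1052), 5012 (SD 1323) and 4606 CPM (SD 647). Complex III subunits summed to 2121 (SD 444), 2672 (SD 509), 2385 (SD 700) and 2281 CPM (SD 274), complex IV subunits to 2875 (SD 666), 3674 (SD 788), 3151 (SD 953) and 3119 CPM (SD 527), and complex V subunits to 7062 (SD 1640.1), 8795 (SD 1663), 7791 (SD 2120.1) and 7428 CPM (SD 1024). For complex II the means were 1533 (SD 522), 1961 (SD 506), 1481 (SD 443) and 1911 CPM (SD 394), so both GLP-2 groups were above both BSA groups in the mean, with ranges that overlapped. Of the subunit CPM, complex II took 7.87% (SD 1.57) in BSA steers and 9.30% (SD 1.38) in GLP-2 injected steers (n = 11 each), and complex I 25.5% (SD 1.55) and 24.2% (SD 0.851). The 10 assembly factors were lower in the mean in both GLP-2 groups, with 218 (SD 35.9), 199 (SD 25.1), 238 (SD 44.0) and 180 CPM (SD 17.0).

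The first question was whether GLP-2 injection altered these genes. NDUFS1, a complex I subunit, rose, and the assembly factors NDUFAF8 and UQCC3 fell. Between GLP-2 and BSA, 89 of the 93 members passed the filter on low counts, and these 3 passed the test, the quasi-likelihood F test of edgeR with p-values adjusted over 13928 genes and a threshold of 0.05. They were 3.37% of the tested members, against 13.5% of all genes, 5.13% being called higher and 8.37% lower. Without adjustment 10 members (11.2%) had a p of at most 0.05, 6 of them higher, against 34.6% of all genes. DESeq2's Wald test called 5 members, adding UQCRC2 and NDUFAF3, where it called 22.4% of all genes. With the replicate block in the fit 0 members and 4.95% of all genes were called. With the follicle score as a covariate, and without the 4 follicle-rich steers, 0 members and 0 genes were called. The score partly follows the injection, at 0.305 to 2.55 with GLP-2 and 1.02 to 6.87 with BSA. All 4 left-out steers received BSA, which leaves fewer steers in that group. Calls lost in these 2 fits therefore cannot tell follicle content from the injection or from lower power.

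Most members differed little between GLP-2 and BSA. The median log2 fold change was 0.07 over the 89 members and 0.008 over all genes, and 61 members were higher with GLP-2 (68.5%), as were 50.7% of all genes. With upper quartile normalization 45 of the 89 were higher. Complex II subunits had a median of 0.34 (4 of 4 higher), complex IV subunits 0.17 (8 of 10 higher), complex I accessory subunits 0.10 (19 of 31 higher), complex III subunits 0.08 (8 of 9 higher), complex V subunits 0.07 (13 of 17 higher) and complex I core subunits 0.02 (5 of 7 higher). The assembly factors had a median of -0.13 (3 of 10 higher). These directions rested in part on single steers: without casein replicate 3 the median of the 78 tested subunits moved from 0.08 to -0.01, with 39 higher, and over all fits without 1 steer it ran from -0.01 to 0.15 (without casein replicate 2). With the follicle score as a covariate 17 of the 89 members were higher, and without the 4 follicle-rich steers 31 were.

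**Figure D2:**
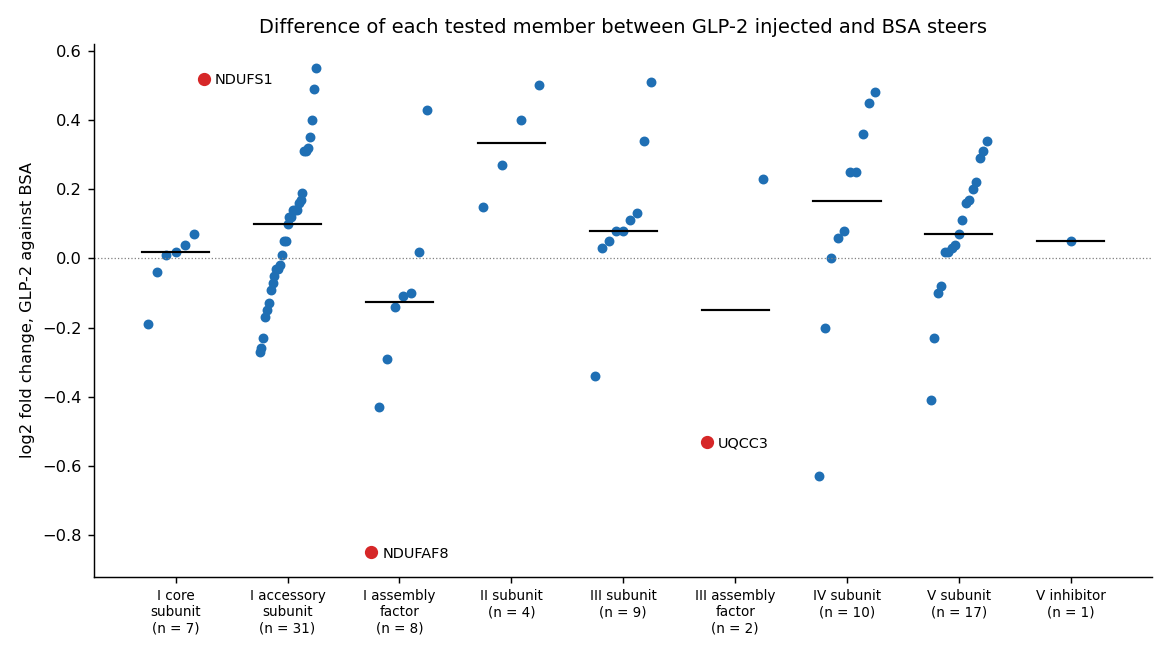
Log2 fold change between GLP-2 injected and BSA steers (y axis) of each of the 89 tested members, by complex and role (x axis). Each point is a gene, lines are medians, and red points passed an adjusted p of 0.05 in edgeR. Subunit medians lie between 0.02 and 0.34, and the called assembly factors are at -0.85 and -0.53.

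NDUFS1, the largest subunit of complex I and the holder of several of its iron-sulfur clusters, was the only subunit past the threshold. Its level was 199, 192, 92.9, 235 and 120 CPM in control and 230, 352, 165, 199 and 280 CPM in GLP-2. It ran from 116 over a median of 165 to 214 CPM in casein and from 188 over a median of 226 to 315 CPM in casein + GLP-2. Of the 11 GLP-2 injected steers 10 lay above the BSA median and 5 above every BSA steer, and the groups overlapped. The log2 fold change was 0.52 (SE 0.166, adjusted p = 0.0423 in edgeR). The call held in 9 of 22 fits that each left out a steer. In the other 13 (casein replicates 1, 2, 3 and 5, casein + GLP-2 replicates 1 to 4, control replicates 1, 3 and 5, GLP-2 replicates 3 and 6) the adjusted p lay between 0.0550 and 0.0817. It was 0.0612 with the replicate block, 0.0600 without the filter on low counts and 0.0710 with a correction for gene length. Without the follicle-rich steers the log2 fold change was 0.34 (adjusted p = 0.361), and with the follicle score as a covariate 0.22 (adjusted p = 1.00).

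UQCRC2, a core protein of complex III, differed by nearly as much. It had 250, 284, 181, 335 and 133 CPM in control and 296, 396, 259, 345 and 412 CPM in GLP-2. It ran from 118 over a median of 261 to 328 CPM in casein and from 274 over a median of 334 to 504 CPM in casein + GLP-2. All 11 GLP-2 injected steers lay above the BSA median, and 6 of them above all BSA steers. The log2 fold change was 0.51 (SE 0.174), a tendency at an adjusted p of 0.0509 in edgeR, with 0.0264 in DESeq2's test. NDUFB4, an accessory subunit in the membrane arm of complex I, had the highest log2 fold change of its complex, also a tendency, 0.55 (SE 0.224, adjusted p = 0.0903). Casein replicate 3 had 20.3 CPM of NDUFB4 and the other BSA steers at least 47.3.

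The 4 genes of complex II all had higher fitted levels with GLP-2, and 0 of them passed the test, with SDHB at -0.00 and SDHD at -0.08 once the follicle score was a covariate. SDHA, which holds the flavin and oxidizes succinate, had 626, 1064, 495, 1008 and 373 CPM in control and 664, 1431, 696, 824 and 989 CPM in GLP-2. It ran from 298 over a median of 731 to 886 CPM in casein and from 696 over a median of 1007 to 1496 CPM in casein + GLP-2. All 11 GLP-2 injected steers stood above the BSA median, and 3 of them above all BSA steers. The log2 fold change of SDHA was 0.50 (SE 0.216, adjusted p = 0.105). The membrane anchor SDHC differed by 0.40 (SE 0.216, adjusted p = 0.189), the iron-sulfur subunit SDHB by 0.27 (SE 0.161, adjusted p = 0.231) and the anchor SDHD by 0.15 (SE 0.158, adjusted p = 0.516). SDHA overlaps LRRC14B on the same strand, so some of its reads may belong to that gene.

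Among the other subunits, ATP5F1A, the alpha subunit of the catalytic head of ATP synthase, had the smallest p of complex V, with a log2 fold change of 0.34 (SE 0.158, adjusted p = 0.134). COX6A1 had the smallest of complex IV, 0.45 (SE 0.212, adjusted p = 0.133), and COX8B the highest log2 fold change there, 0.48 (SE 0.272, adjusted p = 0.212). UQCR10, a small subunit of complex III, had 0.34 (SE 0.195, adjusted p = 0.217). CYC1, the cytochrome c1 of complex III, had 0.08 (SE 0.176, adjusted p = 0.767), and COX4I1 had 0.00 (SE 0.157, adjusted p = 0.998). The lowest log2 fold changes of their complexes were those of NDUFA2 at -0.27 (SE 0.174, adjusted p = 0.263), UQCR11 at -0.34 (SE 0.239, adjusted p = 0.319), COX7A1 at -0.63 (SE 0.337, adjusted p = 0.188) and ATP5MPL at -0.41 (SE 0.227, adjusted p = 0.206). For ATP5MPL, casein replicate 2 had 907 CPM and the other 21 steers between 171 and 434. Leaving that steer out gave a log2 fold change of -0.16.

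The other isoforms and paired genes showed no member past the threshold. COX8A had -0.20 (SE 0.128, adjusted p = 0.270), COX7A2 0.36 (SE 0.216, adjusted p = 0.242) and COX7A2L 0.25 (SE 0.171, adjusted p = 0.291). NDUFA4 had 0.08 (SE 0.192, adjusted p = 0.771). Of the ring subunit genes, ATP5MC1 had 0.22 (SE 0.186, adjusted p = 0.400), ATP5MC2 0.02 (SE 0.128, adjusted p = 0.932) and ATP5MC3 0.31 (SE 0.176, adjusted p = 0.218). The inhibitor ATP5IF1, which keeps ATP synthase from hydrolysing ATP, had 0.05 (SE 0.185, adjusted p = 0.853).

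Both members that fell were assembly factors. NDUFAF8, needed for complex I assembly together with NDUFAF5, had 24.8, 15.4, 38.8, 19.0 and 33.2 CPM in control and 14.4, 13.7, 26.3, 26.6 and 15.0 CPM in GLP-2. It ran from 12.1 over a median of 30.1 to 49.3 CPM in casein and from 8.29 over a median of 13.2 to 17.4 CPM in casein + GLP-2. Of the 11 GLP-2 injected steers 9 lay below the BSA median and 3 below all BSA steers. NDUFAF8 had a log2 fold change of -0.85 (SE 0.225, adjusted p = 0.0246 in edgeR). It passed in all 22 fits that left out a steer, with a largest adjusted p of 0.0497, and had 0.0513 with the replicate block. Without the follicle-rich steers the log2 fold change was -0.82 (adjusted p = 0.320), and with the follicle score as a covariate -0.60 (adjusted p = 1.00).

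UQCC3, a factor for cytochrome b in complex III assembly, had 37.2, 18.3, 36.6, 29.3 and 41.2 CPM in control and 17.8, 24.3, 24.8, 25.8 and 20.7 CPM in GLP-2. It ran from 18.4 over a median of 31.6 to 34.2 CPM in casein and from 17.1 over a median of 18.3 to 27.2 CPM in casein + GLP-2. All 11 GLP-2 injected steers were below the BSA median, and 4 below all BSA steers. UQCC3 had a log2 fold change of -0.53 (SE 0.146, adjusted p = 0.0262 in edgeR). The adjusted p was between 0.0503 and 0.0530 when casein + GLP-2 replicate 3, control replicate 1 or control replicate 3 was left out, and 0.0510 with the replicate block. Without the follicle-rich steers the log2 fold change was -0.35 (adjusted p = 0.344), and with the follicle score as a covariate -0.19 (adjusted p = 1.00).

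NDUFAF3, another factor of complex I, differed by -0.43 (SE 0.149), a tendency at an adjusted p of 0.0550 in edgeR, with 0.0294 in DESeq2's test. The log2 fold changes of the other complex I factors lay between -0.29 for NDUFAF1 and 0.43 (SE 0.414, adjusted p = 0.466) for NDUFAF2. NDUFAF2 had 0 reads in casein replicate 3 and 12 to 140 in the other steers. UQCC1, a complex III factor that works with cytochrome b as well, had 0.23 (SE 0.144, adjusted p = 0.249).

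**Figure D3:**
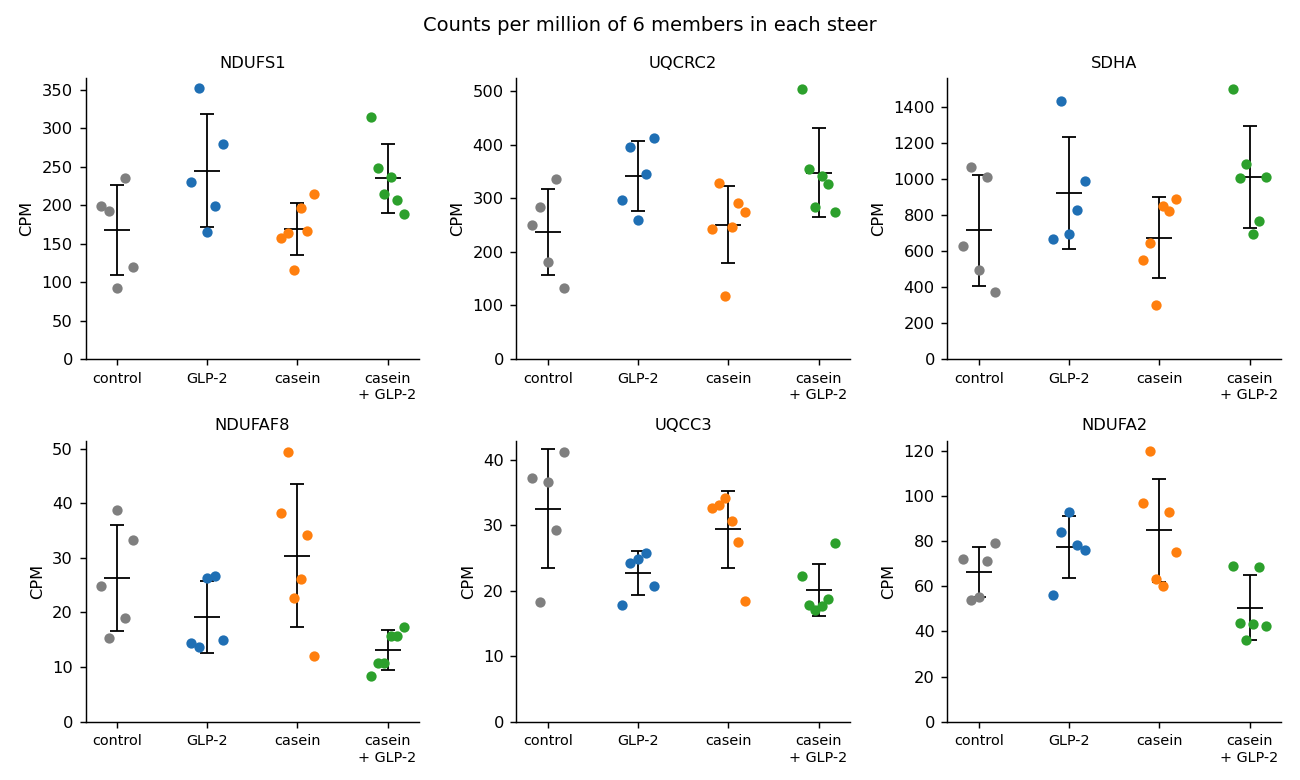
CPM (y axis) of 6 members in each steer, by treatment (x axis). Points are steers, and bars are the mean and 1 SD. NDUFS1, UQCRC2 and SDHA had higher means in both GLP-2 groups than in both BSA groups, NDUFAF8 and UQCC3 had lower ones, and NDUFA2 was lowest in casein + GLP-2 (mean 50.5 CPM).

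Genes of the same pathway that the name rule leaves out were taken from lists. Of 11 further complex I assembly factors, 2 fell between GLP-2 and BSA and 0 rose, beside 8.37% of all genes called lower and 5.13% called higher. They were ACAD9, by 0.68 (SE 0.223, adjusted p = 0.0458) on the log2 scale, and TMEM126B, by 0.51 (SE 0.168, adjusted p = 0.0477), and with the replicate block their adjusted p was 0.0576 and 0.0760. Among 21 tested complex IV assembly factors, CMC2 fell by 0.71 (SE 0.170, adjusted p = 0.0217) and COA5 by 0.67 (SE 0.182, adjusted p = 0.0260), while COX15, an enzyme of heme A synthesis, rose with a log2 fold change of 0.53 (SE 0.179, adjusted p = 0.0496). With the block CMC2 (0.0494) and COA5 (0.0482) passed and COX15 (0.0529) did not, these being adjusted p-values. Of the factors of complexes II (4 tested), III (3 tested) and V (5 tested), 0 passed. The medians of these 5 lists ran from -0.30 to -0.11. The 7 tested genes of mobile electron carriers and of the ADP and phosphate carriers had a median of 0.37, with 0 past the threshold, and CYCS, cytochrome c itself, had 0.43 (SE 0.348, adjusted p = 0.388).

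Of 25 genes that serve expression of the mitochondrial genome, 3 fell and 0 rose, which is to be read against the 8.37% of all genes called lower and 5.13% called higher. These were MTERF3, of the mitochondrial transcription termination factor family, by 0.91 (SE 0.224, adjusted p = 0.0226), TFB2M, part of the mitochondrial transcription machinery, by 0.63 (SE 0.165, adjusted p = 0.0240), and SUPV3L1, an RNA helicase, by 0.47 (SE 0.145, adjusted p = 0.0368). TFAM, which packages mitochondrial DNA, had a log2 fold change of 0.12 (SE 0.145, adjusted p = 0.566). Of 10 tested regulators of nuclear genes for mitochondria, 2 rose and 2 fell, against the same shares of all genes. PPARGC1A, the coactivator PGC-1α, ran from 4.61 to 10.3 CPM in BSA steers (mean 7.86, SD 2.05) and from 9.97 to 21.6 in GLP-2 injected steers (mean 15.0, SD 3.93), so the groups met at their edges. Its log2 fold change was 0.94 (SE 0.181, adjusted p = 0.0186). NRIP1, a corepressor, also rose, with 0.88 (SE 0.274, adjusted p = 0.0384). GABPB1, the partner subunit of the transcription factor GABPA, fell by 0.51 (SE 0.142, adjusted p = 0.0286) and the PGC-1 relative PPRC1 by 0.55 (SE 0.181, adjusted p = 0.0452). The transcription factors GABPA, NRF1 and ESRRA had 0.09 (SE 0.147, adjusted p = 0.689), -0.09 (SE 0.213, adjusted p = 0.772) and 0.29 (SE 0.155, adjusted p = 0.181). Of the 12 genes called outside the members, 5 passed with the replicate block (CMC2, COA5, TFB2M, MTERF3 and PPARGC1A), between 4 (without control replicate 1 or casein + GLP-2 replicate 3) and 12 when 1 steer was left out, and 0 with the follicle score as a covariate or without the follicle-rich steers. For PPARGC1A these gave log2 fold changes of 0.71 (adjusted p = 1.00) and 0.79 (adjusted p = 0.320). These alternatives were applied after the calls were seen.

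The second question was whether casein altered these genes. Between casein and water, 0 of 89 members passed (smallest adjusted p 0.994 in edgeR), as did 0% of 14096 genes. Without adjustment 0 members had a p of at most 0.05, against 3.36% of all genes, and DESeq2's test called 0 members. The median log2 fold change of the members was -0.08, with 21 higher, and -0.01 with 39 higher after the correction for gene length. Over all genes it was 0.003 without that correction, with 50.7% higher. Complex I subunits had a median of -0.11 (4 of 38 higher), complex II subunits of -0.08 (1 of 4 higher) and complex III subunits of -0.02 (3 of 9 higher). Complex IV subunits had a median of -0.09 (1 of 10 higher) and complex V subunits of -0.04 (6 of 17 higher). Log2 fold changes ran from -0.33 for COX7A1 (SE 0.362) to 0.20 for ATP5MPL (SE 0.243).

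The third question was how the GLP-2 difference compared without and with casein. The 4 treatments were fitted together over 15086 genes, of which 91 were members, and in each of the 5 contrasts below 0% of the genes, members included, passed an adjusted p of 0.05 in edgeR. Between GLP-2 and control, 82 of 91 members were higher with a median log2 fold change of 0.29, while 52.6% of all genes were higher with a median of 0.036. Without adjustment 6 members had a p of at most 0.05 (6.59%), against 13.9% of all genes. Between casein + GLP-2 and casein the members leaned the other way. There 29 of 91 were higher with a median of -0.12 (all genes 48.1% and -0.026), and 12 members (13.2%) had an unadjusted p of at most 0.05, 11 of them lower, against 24.1% of all genes. DESeq2's test called 3 members there, all lower, where it called 6.55% of all genes.

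The contrasts between casein and water infusion share their samples with these. Between casein and control, 74 of 91 members were higher with a median of 0.13 (all genes 51.4% and 0.011), and 0 had an unadjusted p of at most 0.05 (5.66% of all tested). With GLP-2 injected in both groups (casein + GLP-2 against GLP-2), 4 of 91 were higher with a median of -0.28 (all genes 48.6% and -0.012). There 7 members had an unadjusted p of at most 0.05 (2.64% of all genes). DESeq2's test called 0 members between GLP-2 and control, 0 between casein and control and 0 with GLP-2 in both groups.

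The interaction, the GLP-2 difference with casein minus that without, was below 0 for 89 of the 91 members, with a median of -0.42. Over all genes 47.3% were above 0 and the median was -0.029. Taken singly it passed for 0 members in edgeR (smallest adjusted p 0.996) and for 0 in DESeq2's test, and 7 members (7.69%) had an unadjusted p of at most 0.05, against 4.28% of all genes. All members were read in the same 22 libraries, so their shared direction is not a count of independent observations. Medians were -0.47 (0 of 31 above 0) for complex I accessory subunits, -0.42 (0 of 9 above 0) for complex III, -0.42 (0 of 12 above 0) for complex IV, -0.50 (0 of 17 above 0) for complex V and -0.16 (1 of 4 above 0) for complex II. With the follicle score as a covariate the interaction median was -0.19 with 27 members above 0, and the median between GLP-2 and control was -0.08. Left-out steers moved the median between casein + GLP-2 and casein to -0.25 (without casein replicate 3, 15 of 91 higher) or to -0.04 (without casein replicate 2), and that between GLP-2 and control to 0.18 (without GLP-2 replicate 3).

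By direction, 54 of the 91 members (59.3%) were higher with GLP-2 under water infusion and lower with GLP-2 under casein infusion, a combination of 16.2% of all genes. A further 28 (30.8%) were higher in both (36.4% of all genes), 8 were lower in both (35.6% of all genes) and 1 was lower under water and higher under casein (11.8%). The 4 complex II genes were higher in both. So were NDUFS1, with log2 fold changes of 0.55 and 0.47, and UQCRC2, with 0.53 and 0.47. UQCC3 was lower in both, with -0.52 and -0.54.

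**Figure D4:**
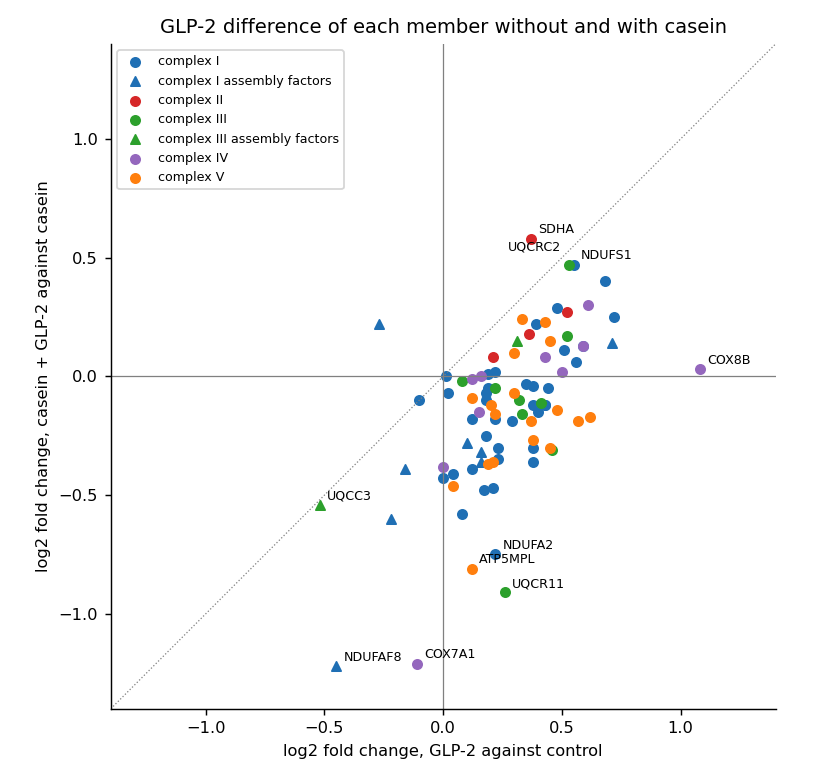
Log2 fold change of each member between GLP-2 and control (x axis) and between casein + GLP-2 and casein (y axis). Points are genes, colored by complex, the dotted line marks equal values, and COX4I2 and NDUFA4L2, with few reads, are left out. Most points lie right of 0 and below the dotted line, and the 4 complex II genes are above 0 on both axes.

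NDUFA2 had the smallest interaction p of the members. This accessory subunit of complex I had 71.9, 53.9, 55.4, 71.2 and 79.1 CPM in control and 56.1, 83.9, 93.0, 78.2 and 75.8 CPM in GLP-2. It ran from 60.2 over a median of 84.0 to 120 CPM in casein and from 36.3 over a median of 43.4 to 68.9 CPM in casein + GLP-2. Of the 6 casein + GLP-2 steers 4 lay below all casein steers. The log2 fold change between casein + GLP-2 and casein was -0.75 (SE 0.198, adjusted p = 0.118 in edgeR, 0.0282 in DESeq2's test). Between GLP-2 and control it was 0.22 (SE 0.215), and the interaction was -0.97 (SE 0.292, unadjusted p = 0.00306 in edgeR, adjusted p = 0.996).

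UQCR11, a small subunit of complex III, followed the same course. It had 125, 85.1, 142, 109 and 179 CPM in control and 92.8, 129, 217, 208 and 120 CPM in GLP-2. It ran from 73.6 over a median of 185 to 274 CPM in casein and from 61.6 over a median of 91.8 to 123 CPM in casein + GLP-2. All 6 casein + GLP-2 steers lay below the casein median and 2 below all casein steers. The log2 fold change between them was -0.91 (SE 0.295, adjusted p = 0.122 in edgeR, 0.0469 in DESeq2's test), and the interaction was -1.17 (SE 0.435, adjusted p = 0.996). NDUFAF8 was the other member that DESeq2's test called there (adjusted p = 0.0170), with -1.22 (SE 0.304, adjusted p = 0.118) in edgeR, against -0.45 (SE 0.328) between GLP-2 and control. ATP5IF1 had 0.45 (SE 0.271) without casein and -0.30 (SE 0.247) with it, and an interaction of -0.75 (SE 0.367, adjusted p = 0.996).

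Members are short genes, with a median length of 1095 bases against 2434 for all genes tested, and log2 fold changes differed with gene length. Among genes of up to 1514 bases, the median log2 fold change between casein + GLP-2 and casein was -0.14 over the 3769 genes and -0.13 over the 70 members among them. Between GLP-2 and control the medians were -0.03 over those genes and 0.29 over the members, and for the interaction -0.10 and -0.47. Between GLP-2 and BSA the median over all genes was -0.10 for genes of up to 1565 bases and 0.11 for genes of at least 3620 bases, and the 70 members among the shorter ones had 0.06. With a correction for gene length the interaction median of the members was -0.32, with 9 of 91 above 0.

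The spread between steers of a treatment differed as well. The median SD of log2 CPM over 80 subunits was 0.382 in control, 0.345 in GLP-2, 0.550 in casein and 0.267 in casein + GLP-2. Over all 15086 genes it was 0.633, 0.412, 0.582 and 0.410 in that order. The subunits thus varied less than the median gene in each treatment, with casein the closest. The genes were not matched for level, and counting noise adds more to the SD of genes with few reads. The difference in spread was not tested.

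Among the forms with few reads, COX4I2 differed most between GLP-2 and BSA. It had 5, 3, 18, 1 and 56 reads in the control steers and 23, 8, 16, 4, 81 and 0 in the casein steers, 215 in all. In GLP-2 it had 3, 0, 0, 3 and 0 reads and in casein + GLP-2 2, 0, 0, 0, 1 and 0, 9 in all. It did not pass the filter on low counts in this comparison. In a fit without that filter, which called 6.93% of all genes, the log2 fold change was -4.11 (SE 0.909, adjusted p = 0.0204 in edgeR), a value that depends on the prior count and was chosen to be shown after it was seen. In the fit of the 4 treatments, where it passed the filter, COX4I2 had -3.68 (SE 1.31, adjusted p = 0.240) between GLP-2 and control and -4.71 (SE 1.31, adjusted p = 0.118) between casein + GLP-2 and casein, and did not pass. The steers with most reads, control replicate 5 and casein replicate 5, had smooth muscle scores (mean log2 CPM of the markers) of 6.34 and 5.16, and GLP-2 replicate 1, with 3 reads, had 5.58. The part of such cells in the COX4I2 reads was not tested. COX6A2 had at most 3 reads in a steer, COX6B2 at most 39 and NDUFA4L2 at most 143.

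**Figure D5:**
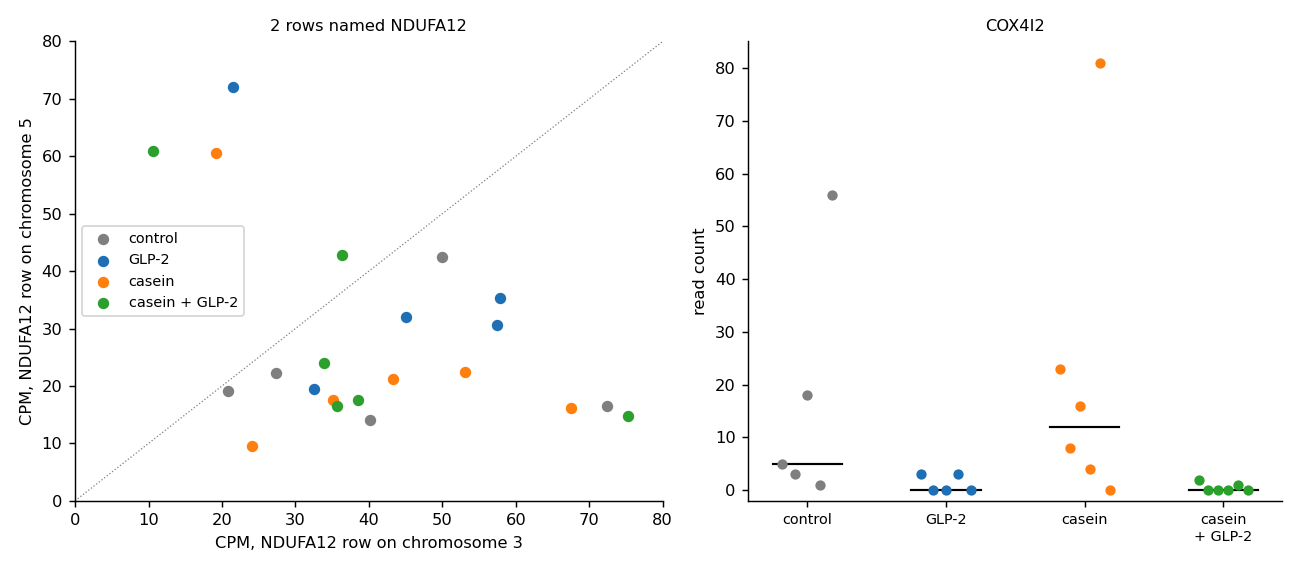
CPM of the NDUFA12 rows on chromosome 3 (x axis) and chromosome 5 (y axis), where points are steers colored by treatment and the line marks equal levels, and, in the other panel, read counts of COX4I2 (y axis) by treatment, with points for steers and lines at the medians. In 4 of 22 steers the chromosome 5 row is above the chromosome 3 row, and COX4I2 is highest in control replicate 5 and casein replicate 5.

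NDUFA12, an accessory subunit of complex I, has 2 rows in ARS-UCD1.2, ENSBTAG00000048722 on chromosome 3 (94815370 to 94815915) and ENSBTAG00000014669 on chromosome 5 (24684273 to 24711486). The chromosome 3 row lies within EPS15 on the other strand. Its gene length of 546 bases is its whole span, so it is annotated without an intron, while the chromosome 5 row has 950 bases within a longer span. Whether the chromosome 3 row is a working gene was not tested, and both rows are counted among the complex I subunits. Rows of 1 gene name may be near-identical copies that share reads in counting, so the split between them is uncertain. The row on chromosome 5 took 85.1% of their CPM in casein + GLP-2 replicate 5, 77.0% in GLP-2 replicate 5, 75.9% in casein replicate 5 and 54.1% in casein + GLP-2 replicate 1, and between 16.3% and 48.0% in the other 18 steers. Between the lowest and the highest steer the chromosome 3 row varied 7.08-fold, the chromosome 5 row 7.51-fold and their sum 2.78-fold. Between GLP-2 and BSA the chromosome 3 row had a log2 fold change of -0.02 (SE 0.274, adjusted p = 0.959) and the chromosome 5 row of 0.49 (SE 0.309, adjusted p = 0.256).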

How the data were processed

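The authors trimmed paired reads with fastp, aligned them to ARS-UCD1.2 with HISAT2 2.0.5, assembled transcripts with StringTie 1.3.3b and deposited counts of reads per gene, made with featureCounts 1.5.0-p3, which are not normalized. The FPKM values are also as deposited by the authors. RNA quality per sample is not given in the sources used here. The paper reports RNA integrity that varied widely between samples, and a control sample that was not sequenced because its integrity was low. The part of RNA integrity in the differences by gene length was not tested.

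Counts were filtered (filterByExpr, minimum 10), normalized by TMM and tested with edgeR 4.0.16 (R 4.3.3), with Benjamini-Hochberg adjustment over all genes. Adjusted p-values up to 0.05 were called, and those up to 0.1 are named tendencies. Printed CPM are TMM-normalized. The study's methods compare pooled main effects and do not say whether the block was in the model. The main fits here pooled in the same way and left the block out. A further GLP-2 steer was not analysed here. Alternatives were DESeq2 1.42.0, limma 3.58.1 on log2(FPKM + 1) and log2(FPKM + 0.1), other normalizations, no filter, covariates (the other factor, the follicle score), a gene length correction (loess, span 0.3), the replicate block and leaving out steers. P-values set the difference between groups against the spread between steers. Scripts were tested on simulated counts. Named were called members, the SDH genes, CYC1, paired isoforms, and in each class the members with the smallest p and the highest and lowest log2 fold change, with UQCR11 and NDUFA2 also shown for the interaction. Members and lists were chosen with earlier results of these data known. Promoter and protein sequences were not used here.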

Additional observations from a re-analysis of the deposited data

Results flagged for a closer look

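In 15 of 163 groups of values (9.20%) the highest or lowest steer of a treatment lay far from the others by Dixon's criterion. Chance gives about 1 in 20 for independent groups. These groups are 41 measures read in the same libraries, so the share cannot be judged against that rate. Of these, 9 were the level of casein replicate 3, the follicle-rich scraping with the lowest subunit sum, and each lay below the other casein steers. In log2 CPM, with the nearest other casein steer in parentheses, they were 7.33 (8.56) for CYC1, 7.39 (8.37) for ATP5MC3, 6.76 (8.14) for ATP5MC1, 5.97 (7.97) for COX8B, 7.00 (7.93) for SDHB, 6.88 (7.92) for UQCRC2, 4.35 (6.07) for NDUFB4, 4.00 (4.94) for UQCC1 and -2.83 (0.492) for NDUFAF2. The NDUFAF2 value came from 0 reads. GLP-2 replicate 1, whose subunit sum lay among the controls, was low for ATP5MC3 at 8.42 (nearest 9.04) and for NDUFB4 at 6.15 (nearest 7.01). Casein replicate 6 was low for UQCC3 at 4.21 (nearest 4.79). In casein + GLP-2, replicate 1 was high for ATP5F1A at 11.1 (nearest 10.7), and replicate 6 for COX7A1 at 2.61 and for COX6A2 at -1.44 (nearest -2.83), the latter from 2 reads.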

How the results depend on the processing

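The replicate block, the follicle score as a covariate and the fit without the 4 follicle-rich steers (chosen after the scores were seen) each left 0 members called between GLP-2 and BSA, and DESeq2's test called 5. The blocked fit called 689 genes in all where the fit without it called 1881. The numbers mark body weight blocks, and deviations from the treatment means had a mean correlation of 0.0331 over 30 same-block pairs and -0.00641 over 151 others. Between casein + GLP-2 and casein, DESeq2's test called 3 members, and with the follicle score as a covariate the median between GLP-2 and control was -0.08. Leaving out 1 steer in turn gave between 1 called member (without control replicate 1, control replicate 3 or casein + GLP-2 replicate 3) and 5 (without casein replicate 6, control replicate 2, control replicate 4 or GLP-2 replicate 4). The cause was not tested for any of these.

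Several of the members picked for naming changed sign, most of them with the follicle score as a covariate, where values of up to 0.48 (COX8B) came to about 0 or below. With the follicle score as a covariate the log2 fold change between GLP-2 and BSA was -0.15 for COX4I1, -0.18 for CYC1, -0.01 for ATP5MC3, -0.08 for SDHD, -0.03 for ATP5MC1, -0.03 for COX8B, -0.00 for SDHB, -0.07 for COX7A2, -0.04 for NDUFA4, -0.02 for COX7A2L, -0.01 for UQCR10, -0.08 for ATP5IF1, -0.10 for UQCC1 and -0.06 for NDUFAF2. Without the 4 follicle-rich steers it was -0.13 for COX4I1, -0.14 for CYC1, -0.01 for SDHD, -0.02 for NDUFA4 and -0.11 for ATP5IF1. Upper quartile normalization gave -0.06 for COX4I1, -0.05 for ATP5MC2 and -0.00 for ATP5IF1, the replicate block -0.01 for ATP5MC2 and -0.01 for ATP5IF1, the correction for gene length -0.03 for COX4I1 and -0.02 for ATP5MC2, and that correction with the block -0.02 for COX4I1 and -0.03 for ATP5MC2. For COX4I1 it was -0.01 with DESeq2's size factors, without a filter, with the infusion as a covariate, in DESeq2's test and in limma on FPKM with either pseudocount. Over the fits without 1 steer it ran from -0.10 to 0.05 for COX4I1, -0.04 to 0.15 for CYC1, -0.01 to 0.17 for NDUFA4, -0.07 to 0.05 for ATP5MC2 and -0.05 to 0.13 for ATP5IF1. The chromosome 3 row of NDUFA12 had the other sign in 5 of 34 alternatives (-0.17 to 0.09). The other tested members picked for naming, the chromosome 5 row and NDUFAF1 kept their direction between GLP-2 and BSA. Signs of the remaining members are not listed singly. How many of all tested members were higher in the main alternatives is given above. A median over mitochondrial genes and a normalization on nuclear genes alone were not run, since the members are all nuclear. Depth limits the forms with few reads: COX6A2 and COX6B2 passed the filter in no comparison, and COX4I2 and NDUFA4L2 only in the fit of the 4 treatments.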
